A study of Homo sapiens with 24 samples.

Results

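10 genes of the NRF2 antioxidant system were followed in HSJD-DIPG-007 cells, a diffuse midline glioma line, with and without LLY-283, an inhibitor of the arginine methyltransferase PRMT5. The genes were NFE2L2, which encodes NRF2, its inhibitor KEAP1, and NQO1, HMOX1, GCLC, GCLM, SLC7A11, TXNRD1, SRXN1 and GPX4. They were named for their known roles in this system, with earlier results of these data known. All 10 were found among the 58676 gene rows of the count table, and all 10 passed the filter on low counts in every comparison.

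Polyadenylated RNA was sequenced in 24 libraries, 12 from cells given vehicle and 12 from cells given LLY-283. Each treatment group had 3 libraries at day 0, 1 library at each of days 1, 2 and 3, 3 libraries at day 5, 2 libraries at day 7 and 1 library at day 10. All libraries came from the same line, whose labelled genotype is H3F3A K27M, ACVR1 R206H and an unspecified missense change (MIS) in PIK3CA. The cells grew as spheroids, and the labels give a single dose at GI(40), the concentration named for 40% growth inhibition, added the day after seeding. By the study's methods the medium was renewed after 5 days and again held LLY-283 or vehicle, so the cells of day 7 had received the agent again, and the methods do not describe day 10. The study describes the libraries of a group as technical repeats of 1 line, so p-values here measure the spread between these libraries and need not cover the spread between separate experiments.

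Library totals ranged from 13835205 to 23190369 estimated counts. The 10 markers of the labelled glioma cells, among them OLIG2 and PDGFRA, summed to 7409 to 9382 CPM, counts scaled to a common library size, in the 24 libraries. The 7 microglia and macrophage markers summed to 0.24 to 1.21 CPM, and C1QA, C1QB and TYROBP were at 0 in all 24 libraries. Fibroblast markers, 12 genes, summed to 210.9, 218.9 and 382.6 CPM in vehicle repeats 1, 2 and 3 at day 5, and to 306.3 to 313.3 CPM in the LLY-283 libraries of that day. The sum in LLY-283 was higher than in vehicle repeats 1 and 2, largely through THY1 and POSTN. THY1 was at 140.7 to 148.1 CPM in the vehicle libraries of day 5 and at 164.2 to 173.2 CPM in LLY-283. POSTN was at 19.5 to 28.8 CPM in vehicle and at 70.3 to 79.7 CPM in LLY-283. LUM was at 20.5 to 23.7 and at 29.4 to 31.7 CPM, while FN1 was at 0.75 to 2.26 CPM in LLY-283. In vehicle day 5 repeat 3, FN1 was at 59.1 CPM and COL1A1 at 52.7 CPM, against 2.34 and 8.27 CPM in repeat 1, and the counts of genes called at day 5 are given with and without that library. The same genes were raised in LLY-283 day 2 (FN1 26.7 CPM, COL1A1 32.4 CPM) and in vehicle day 7 repeat 1 (FN1 29.2 CPM, COL1A1 30.4 CPM). The day 7 libraries labelled repeat 2 stood apart. Over the 4304 genes called at day 5, the difference between LLY-283 and vehicle at day 7 correlated with the day 5 log2 fold change at r = 0.76 for repeat 1 and at r = -0.60 for repeat 2. The labels were kept, and the values of both day 7 repeats are given separately.

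NRF2 is a transcription factor of the response to oxidants and electrophiles. KEAP1 binds it in the cytoplasm and, with the ubiquitin ligase built on CUL3, marks it for degradation. When reactive molecules modify cysteines of KEAP1, NRF2 escapes, enters the nucleus, pairs with a small MAF protein and binds antioxidant response elements near its targets. These targets supply glutathione, keep thioredoxin reduced, break down haem and reduce quinones. NRF2 is controlled largely at the level of its protein, so its messenger RNA need not follow its activity, and neither the protein nor its binding was measured here.

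The core of the antioxidant response element was looked for in the promoters of these genes, since it is the sequence through which NRF2 acts. The letters searched were TGACNNNGC, or GCNNNGTCA for the same element on the other strand, in windows of 300 bases running from 250 bases before to 50 bases after the annotated start of each gene in RefSeq (GRCh38.p14). The first letters of the core overlap the AP-1 motif TGACTCA, which was not searched. Promoters of 8 of the 10 genes were matched, all except HMOX1 and SLC7A11. Of these 8, GCLM and TXNRD1 held the core, against 3702 of all 27305 promoters (13.6%). The matches are shown 5′ to 3′ along the gene's own strand, with the core in capitals.
GCLM, chr1:93909446-93909474, minus strand: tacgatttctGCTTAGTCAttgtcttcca
TXNRD1, upstream, chr12:104215670-104215698, plus strand: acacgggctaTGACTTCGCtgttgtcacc
TXNRD1, near the start, chr12:104215761-104215789, plus strand: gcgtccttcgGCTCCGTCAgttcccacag
The first capital base lay at position -34 from the start in GCLM, and at -99 and -8 in TXNRD1. A match is a description of letters and does not show a bound site, and elements farther away were not searched.

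Levels in the vehicle cells at day 5 were first compared between genes, as CPM per kilobase of each gene's canonical transcript (mean ± SD, n = 3). The quinone reductase gene NQO1 was highest at 167.4 ± 2.06, followed by the lipid peroxide reductase gene GPX4 at 157.1 ± 1.55. The lengths used were the full 2521 bases for NQO1 and 851 bases for GPX4, with no correction for fragment length. The SDs do not cover that choice, so the order of this pair is not settled. TXNRD1 lay at 53.2 ± 0.91, KEAP1 at 49.9 ± 1.41 and NFE2L2 at 41.9 ± 0.47. SRXN1 followed at 16.4 ± 0.86 and GCLC at 13.4 ± 0.63. GCLM was at 3.97 ± 0.34, HMOX1 at 2.28 ± 0.33 and SLC7A11 at 2.00 ± 0.22. Only HMOX1 and SLC7A11 had overlapping ranges among neighbours in this order. The haem oxygenase gene HMOX1 rested on 38 to 124 counts per library, the fewest of the 10.

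**Figure D1:**
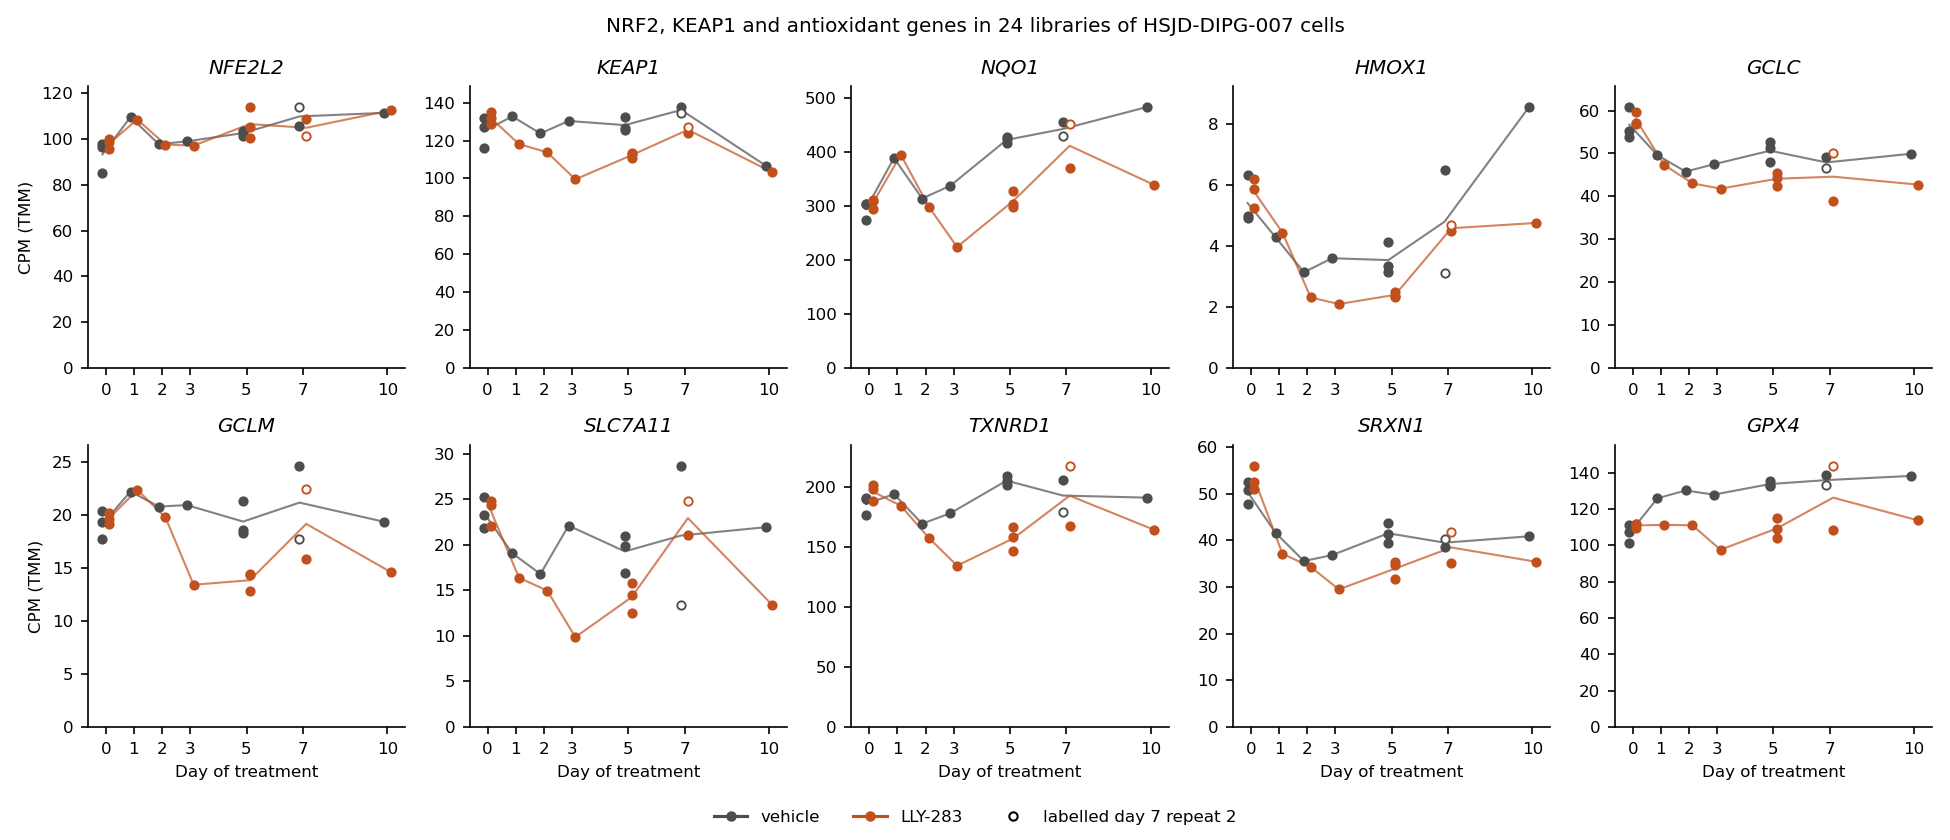
CPM (TMM-scaled, vertical axis from 0) of each gene in each of the 24 libraries by day of treatment. Points are libraries, lines join group means, and open points are the libraries labelled day 7 repeat 2. At day 5 the LLY-283 points lie below all vehicle points in 9 of the 10 panels, and NFE2L2 is the exception.

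The main question of the series was how gene expression changed under PRMT5 inhibition, and day 5, with 3 libraries in each group, was its main contrast. At day 5, 8 of the 10 genes were called lower in LLY-283 (adjusted p under 0.01) and 0 higher. Among all 16491 genes tested, 14.1% were called lower and 12% higher. The LLY-283 libraries all lay below the vehicle libraries for 9 of the 10 genes, against 25.6% of all genes. At an adjusted p under 0.05, 9 of 10 were lower, against 19.1% of all genes. The median log2 fold change of the 10 genes was -0.32, with a median of 0.02 over all genes tested. The falls were modest, and the largest among the called genes was that of GCLM, which fell by 26.9%. In bulk RNA, fewer cells of a type and less RNA per cell cannot be told apart. When vehicle day 5 repeat 3, the library with the FN1 signal, was left out, 6 of the 10 genes were called lower, and GCLC and SLC7A11 were the ones lost. Without LLY-283 day 5 repeat 3, 6 were also called and the same pair was lost. Over all genes, 4304 were called in either direction with all libraries of day 5. That count was 3577 without vehicle repeat 3 and 3371 without LLY-283 repeat 3. The markers of the labelled cells summed to 8461 to 8752 CPM in the vehicle libraries of day 5 and to 9243 to 9382 CPM in the LLY-283 libraries. The 5 neuron markers summed to 54.2 to 55.5 CPM in vehicle and to 69.8 to 72.4 CPM in LLY-283. The part of these markers and of the fibroblast markers in the differences was not tested.

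The regulators moved little. NFE2L2 (chr2:177218667-177392756, minus strand) was at 103.5, 102.7 and 101.3 CPM in the vehicle libraries of day 5 and at 113.9, 105.2 and 100.2 CPM in the LLY-283 libraries. The groups overlapped, and the log2 fold change of 0.08 (SE 0.04) had an adjusted p of 0.15. KEAP1 (chr19:10486125-10503558, minus strand), whose product holds NRF2 for degradation, was at 132.2, 126.4 and 125.7 CPM in vehicle and at 113.3, 112.7 and 110.8 CPM in LLY-283. The groups did not overlap, and KEAP1 fell by 0.17 on the log2 scale (SE 0.04, adjusted p = 0.00099).

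NQO1 (chr16:69706996-69726668, minus strand), which reduces quinones by transfer of electrons in pairs, had the smallest p of the 10. It stood at 423, 426.7 and 416.5 CPM in vehicle and at 327.1, 303.4 and 297.7 CPM in LLY-283. Every LLY-283 library was below every vehicle library, with a log2 fold change of -0.42 (SE 0.04, adjusted p = 2.6e-10). HMOX1 (chr22:35380361-35394214, plus strand), which opens the haem ring, was at 3.35, 3.15 and 4.14 CPM in vehicle and at 2.51, 2.37 and 2.35 CPM in LLY-283. Its groups also did not overlap, but the log2 fold change of -0.53 had an SE of 0.20 and an adjusted p of 0.038, which missed the threshold. Without vehicle day 5 repeat 3, its highest library, the adjusted p of HMOX1 was 0.15.

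GCLC, GCLM and SLC7A11 serve the synthesis of glutathione. GCLC and GCLM encode the catalytic and the modifier subunit of glutamate-cysteine ligase, the rate-limiting enzyme, and SLC7A11 encodes the cystine carrier subunit of the system xc- exchanger. GCLM (chr1:93885199-93909456, minus strand) was at 18.3, 18.6 and 21.3 CPM in vehicle and at 12.8, 14.3 and 14.4 CPM in LLY-283. It fell by 0.45 on the log2 scale (SE 0.09, adjusted p = 0.00013), with no overlap between groups. GCLC (chr6:53497341-53616970, minus strand) was at 51.2, 48 and 52.7 CPM in vehicle and at 45.5, 44.3 and 42.4 CPM in LLY-283. Its groups were also apart, but by less, with a log2 fold change of -0.17 (SE 0.05, adjusted p = 0.0095). This call was near the threshold and passed in 4 of 14 alternatives. It was lost without vehicle repeat 1 or 3, and without LLY-283 repeat 2 or 3, with an adjusted p of 0.025 to 0.052. SLC7A11 (chr4:138164097-138242349, minus strand) was at 16.9, 19.9 and 21.0 CPM in vehicle and at 14.5, 15.8 and 12.5 CPM in LLY-283. The highest LLY-283 library of SLC7A11 lay just below the lowest vehicle library. Its log2 fold change was -0.41 (SE 0.09, adjusted p = 0.0012). That call was lost without vehicle day 5 repeat 3 (adjusted p = 0.014) and without LLY-283 day 5 repeat 3 (adjusted p = 0.015), and the fold change kept its direction in all 14 alternatives.

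TXNRD1 and SRXN1 belong to the thioredoxin side of the system. TXNRD1 (chr12:104215779-104350307, plus strand) encodes a selenoprotein that keeps cytosolic thioredoxin reduced. It was at 205.4, 201.9 and 208.9 CPM in vehicle and at 166.7, 158.1 and 147.0 CPM in LLY-283. The groups were well apart, with a log2 fold change of -0.36 (SE 0.04, adjusted p = 3e-08). SRXN1 (chr20:646615-653200, minus strand), whose product repairs overoxidised peroxiredoxins, was at 43.7, 41.5 and 39.4 CPM in vehicle and at 35.3, 34.8 and 31.7 CPM in LLY-283. SRXN1 fell by 0.27 on the log2 scale (SE 0.06, adjusted p = 0.00054). GPX4 (chr19:1103982-1106791, plus strand), the selenoprotein that reduces lipid peroxides in membranes and holds back ferroptosis, was at 135.2, 133.4 and 132.6 CPM in vehicle. In LLY-283 it was at 114.8, 104.3 and 108.8 CPM. All 3 LLY-283 libraries of GPX4 lay below vehicle, with a log2 fold change of -0.27 (SE 0.04, adjusted p = 3.7e-06). KEAP1, NQO1, TXNRD1, SRXN1 and GPX4 were called in all 14 alternatives.

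Some of these genes share sequence with annotated neighbours on the same strand, and the counts of those neighbours were small. The neighbour of NFE2L2 (ENSG00000213963) had 19 to 80 counts per library against at least 1371 for NFE2L2. That of GCLC (ENSG00000231683) had 2 to 20 counts against at least 712, and that of SRXN1 (ENSG00000270299) had 0 to 28 against at least 532. Genes on the opposite strand overlap NFE2L2, NQO1, GCLC and SLC7A11, and whether the counting used strand was not given in the sources used here.

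Day 0 libraries of the vehicle and LLY-283 groups served as the control contrast. None of the 10 genes was called by edgeR, with 0 at an unadjusted p under 0.05 and 0 called by DESeq2. Among all 17780 genes tested, edgeR called 3 (0.0169%), and 1012 had an unadjusted p under 0.05. DESeq2 called 4 of all genes. All 10 log2 fold changes lay above zero, between 0.01 for SLC7A11 and 0.08 for HMOX1, with SEs of 0.04 to 0.14. NQO1, for example, was at 274.4, 304.3 and 303.8 CPM in vehicle and at 308.2, 294.6 and 310.7 CPM in LLY-283, and the groups overlapped for all 10 genes.

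Days 1, 2 and 3 had 1 library per group and were fitted together, with day as a block. All 10 log2 fold changes were below zero, with a median of -0.20 against 0.01 over all genes. None of the 10 was called by edgeR or by DESeq2, and 4 had an unadjusted p under 0.05 in edgeR. Of all 19179 genes, edgeR called 2 (0.0104%), and 3016 had an unadjusted p under 0.05. DESeq2 called 12 of all genes. The smallest p among the 10 was that of GPX4, with a log2 fold change of -0.26 (SE 0.06, adjusted p = 0.12). KEAP1 followed at -0.22 (SE 0.06, adjusted p = 0.16). SLC7A11 had the largest mean difference at -0.48, with an SE of 0.22. Without day 2, SLC7A11 was called at -0.66 (adjusted p = 0.00024), and without day 3, GPX4 was called at -0.20 (adjusted p = 0.0011). Over all genes, 141 and 417 were called in these fits. Day 2 holds the LLY-283 library with raised FN1.

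Single libraries traced that difference by day. The median log2 difference between LLY-283 and vehicle over the 10 genes was -0.07 on day 1 and -0.10 on day 2. It reached -0.40 on day 3 and was -0.34 on day 5 and -0.25 on day 10. Over all genes it stayed between -0.02 and 0.02 on every day. At day 1 NQO1 was at 388.5 CPM in vehicle and 394.6 CPM in LLY-283, and at day 2 it was at 313.7 and 298.2 CPM. At day 3 NQO1 was at 337.3 CPM in vehicle and 224.1 CPM in LLY-283. SLC7A11 was at 22.1 CPM in vehicle and 9.87 CPM in LLY-283 at day 3, a log2 difference of -1.15, and GCLM was at 20.9 and 13.4 CPM. The LLY-283 library of day 3 was the lowest of all 24 for KEAP1, NQO1, HMOX1, SLC7A11, TXNRD1, SRXN1 and GPX4. The share of all genes that were lowest in that library was not counted. Scaled to the library total alone, KEAP1 was at 103.6 CPM there and lower, at 102.5 CPM, in the LLY-283 library of day 10. At day 1 the lowest differences were -0.22 for SLC7A11, -0.18 for GPX4, -0.17 for KEAP1 and -0.16 for SRXN1, and 1 library per group gives no test for a single day.

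**Figure D2:**
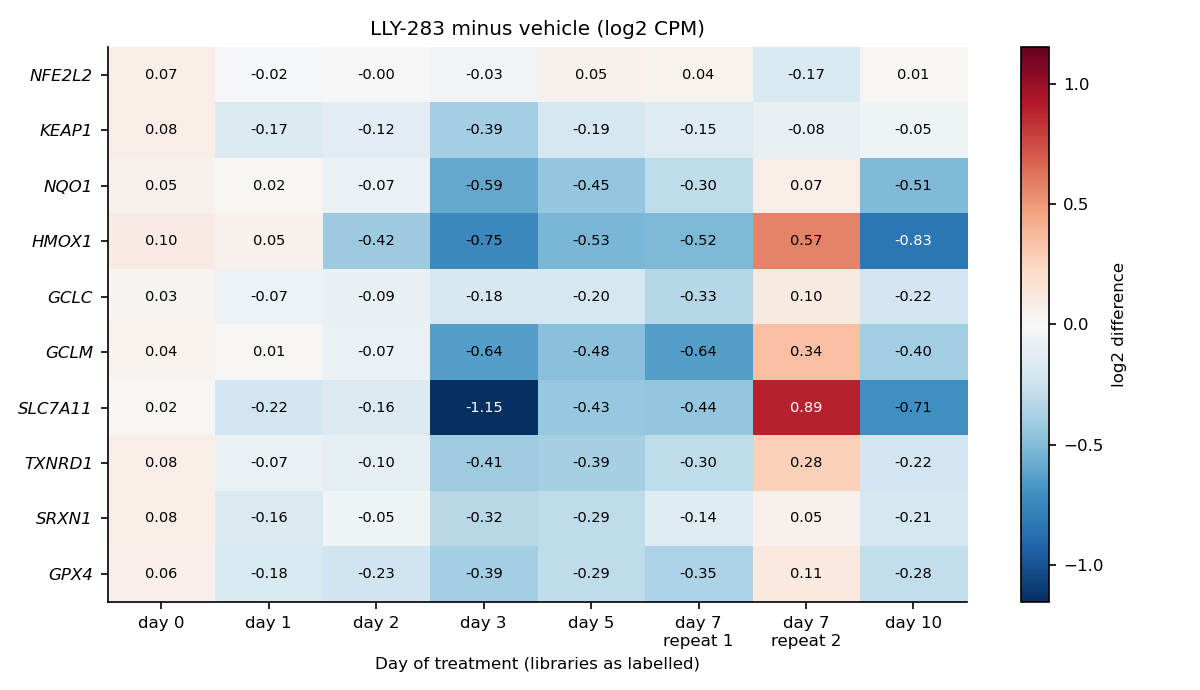
Difference in log2 CPM between LLY-283 and vehicle for each gene (rows) and day (columns). Blue is lower and red is higher in LLY-283, and days 0 and 5 are differences of group means of 3 libraries while the other columns are single library pairs. The column of day 3 holds the lowest value of the plot, -1.15 for SLC7A11, and the column of day 7 repeat 2 is above zero for 8 genes.

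At day 7 the 2 repeat numbers disagreed. In repeat 1, 9 of the 10 genes were lower in the library labelled LLY-283, with a median log2 difference of -0.31. In repeat 2, 2 of the 10 were lower, NFE2L2 and KEAP1, and the median was 0.11. SLC7A11 was at 28.7 CPM in vehicle repeat 1 and 21.0 CPM in LLY-283 repeat 1, but at 13.4 CPM in the library labelled vehicle repeat 2 and 24.8 CPM in the library labelled LLY-283 repeat 2. The library labelled LLY-283 day 7 repeat 2 was the highest of all 24 for TXNRD1, at 217.8 CPM, and for GPX4, at 143.8 CPM. Tested by label, 0 of the 10 genes were called at day 7 by edgeR or DESeq2, with 0 at an unadjusted p under 0.05. Of all 16826 genes, edgeR called 0 (0%), while DESeq2 called 3 and 236 had an unadjusted p under 0.05 in edgeR.

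Day 10, the last time point, had 1 library per group. The 5 endothelial markers summed to 25.6 CPM in the vehicle library and 12.1 CPM in the LLY-283 library. They summed to 4.46 to 9.66 CPM in the libraries of days 0 to 7. In the vehicle library, 1 of the 10 markers of the labelled cells was at 0. The part of these markers in the levels of day 10 was not tested. HMOX1 was at 8.57 CPM in vehicle, its highest level in the series, and at 4.77 CPM in LLY-283. NQO1 was at 483 CPM in vehicle, also its highest, and at 338.9 CPM in LLY-283. SLC7A11 was at 21.9 and 13.4 CPM and GPX4 at 138.2 and 113.8 CPM. KEAP1, at 106.8 and 103.2 CPM, and NFE2L2, at 111.3 and 112.4 CPM, were close in the 2 libraries. The test of treatment by day used the 22 libraries of days 0 to 7. By edgeR, 0 of the 10 genes were called, with 6 at an unadjusted p under 0.05. Of all 20756 genes, 6 were called (0.0289%), and 3166 had an unadjusted p under 0.05. NQO1 came nearest with an adjusted p of 0.037, and the likelihood ratio test of DESeq2 called NQO1 alone. This test holds the day 7 libraries that stood apart. Without LLY-283 day 7 repeat 1, or without LLY-283 day 7 repeat 2, 3 of the 10 genes were called, and without vehicle day 7 repeat 1, 2 were. Over all genes, 894, 429 and 274 were called in these 3 fits, against 6 with all 22 libraries.

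The change over 5 days of culture was then compared within each treatment group. In vehicle, 3 genes rose and 4 fell, where 22.2% of all 17106 genes tested rose and 16.7% fell. NQO1 rose from 294.2 ± 17.1 to 422.1 ± 5.18 CPM (SD, n = 3), a log2 fold change of 0.51 (SE 0.04, adjusted p = 1e-11). GPX4 rose by 0.31 (SE 0.04, adjusted p = 1.7e-07) and TXNRD1 by 0.13 (SE 0.04, adjusted p = 0.0055). HMOX1 fell by 0.63 (SE 0.17), SLC7A11 by 0.31 (SE 0.08), SRXN1 by 0.29 (SE 0.05) and GCLC by 0.18 (SE 0.05), at adjusted p of 0.0024, 0.0024, 4.8e-05 and 0.0056. NFE2L2 at 0.12, KEAP1 at 0.02 and GCLM at -0.00 did not pass. The calls of HMOX1, SLC7A11 and GCLC were lost in DESeq2, and without vehicle day 5 repeat 1 these and TXNRD1 were lost, which left NQO1, SRXN1 and GPX4. Without vehicle day 0 repeat 2, SLC7A11, GCLC and TXNRD1 were lost. HMOX1 and GCLC were also lost without vehicle day 0 repeat 3 or day 5 repeat 2, and TXNRD1 without vehicle day 0 repeat 1 or day 5 repeat 3.

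In LLY-283, 1 gene rose and 7 fell between day 0 and day 5, where 22.9% of all 17341 genes tested rose and 19.5% fell. HMOX1 fell from 5.78 ± 0.49 to 2.41 ± 0.09 CPM, with a log2 fold change of -1.24 (SE 0.16, adjusted p = 3.1e-07). SLC7A11 fell by 0.72 (SE 0.08), SRXN1 by 0.63 (SE 0.05), GCLM by 0.49 (SE 0.08), GCLC by 0.38 (SE 0.05), TXNRD1 by 0.30 (SE 0.04) and KEAP1 by 0.21 (SE 0.03), all on the log2 scale. Their adjusted p lay between 2.6e-10 for SRXN1 and 1.2e-05 for KEAP1. NFE2L2 was higher by 0.14 (SE 0.04, adjusted p = 0.0056), a call that was lost without LLY-283 day 5 repeat 1 (log2 fold change 0.08, adjusted p = 0.066). It was also lost without LLY-283 day 0 repeat 2, day 0 repeat 3 or day 5 repeat 2. In DESeq2 the adjusted p of NFE2L2 was 0.045, and the call passed in 5 of 14 alternatives. NQO1 and GPX4, which rose in vehicle, had log2 fold changes of 0.04 and -0.00 here (adjusted p = 0.35 and 0.93). The day 5 contrast of treatments shares its libraries with both of these contrasts.

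**Figure D3:**
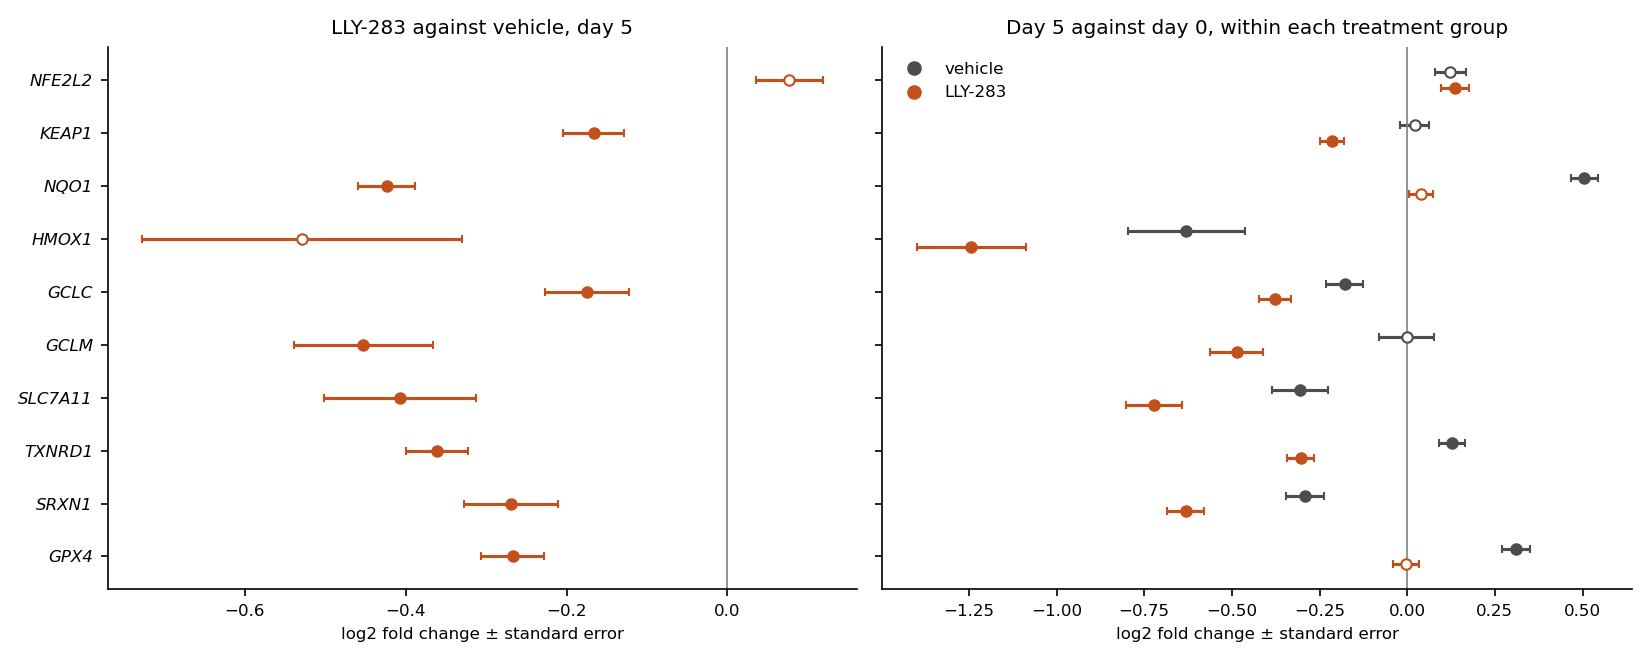
Log2 fold changes ± standard error (edgeR, 3 libraries per group and day). Left, LLY-283 against vehicle at day 5; right, day 5 against day 0 within vehicle (grey) and LLY-283 (orange), with filled points at an adjusted p under 0.01. On the right the LLY-283 point is left of the vehicle point for 9 genes, and NQO1 and GPX4 rise in vehicle and lie at 0.04 and -0.00 in LLY-283.

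The difference between these changes was tested directly as an interaction over the 12 libraries of days 0 and 5. The treatment effect was lower at day 5 than at day 0 for 6 of the 10 genes and higher for 0, against 8.15% lower and 6.78% higher of all 18369 genes tested. The 6 were NQO1 at -0.46 (SE 0.05, adjusted p = 4.1e-07), TXNRD1 at -0.42 (SE 0.06, adjusted p = 2.6e-06), GPX4 at -0.31 (SE 0.05, adjusted p = 0.00011), GCLM at -0.48 (SE 0.11, adjusted p = 0.0015), SRXN1 at -0.33 (SE 0.08, adjusted p = 0.0017) and KEAP1 at -0.23 (SE 0.06, adjusted p = 0.0032). SLC7A11 at -0.41 (adjusted p = 0.015), HMOX1 at -0.61 (adjusted p = 0.049) and GCLC at -0.19 (adjusted p = 0.05) missed the threshold, and NFE2L2 was at 0.02 (SE 0.06). Without vehicle day 5 repeat 1, KEAP1 and SRXN1 had an adjusted p of 0.016 and 0.011, while SLC7A11 had 0.0037. Without LLY-283 day 0 repeat 1, KEAP1 had 0.013. SLC7A11 also passed without vehicle day 0 repeat 2, LLY-283 day 0 repeat 2 or LLY-283 day 5 repeat 2.

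Other genes of the same pathways were read at day 5 from lists of general knowledge. SQSTM1, BACH1, GSR, TXN, PIR, AKR1C1, AKR1C2, AKR1C3 and SELENOH were picked for mention after their values were seen. As a background, 14.1% of all genes were called lower and 12% higher at day 5. Without vehicle day 5 repeat 3, a setting added after seeing the data, 11.6% were lower and 9.14% higher, and 25 of the 28 genes that the rule named at day 5 were still called. Of 12 further genes that control NRF2, 2 were lower and 1 higher in LLY-283, with a median log2 fold change of -0.02, shares near those of all genes. CUL3 and RBX1, parts of the ligase that works with KEAP1, fell by 0.14 (SE 0.04) and 0.17 (SE 0.05) on the log2 scale, and without vehicle day 5 repeat 3 neither was called (adjusted p = 0.026 and 0.018). CDKN1A, a cell cycle inhibitor whose protein also binds NRF2, rose from 165.8 ± 2.11 to 230.4 ± 9.77 CPM, with a log2 fold change of 0.50 (SE 0.04). SQSTM1 at -0.09 and BACH1 at 0.03, the autophagy receptor that binds KEAP1 and the repressor at antioxidant response elements, did not pass the test.

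Glutathione genes beyond the 3 above were mostly lower where they were called. Of 20 listed, 17 were tested, 8 fell and 1 rose, with a median of -0.18, and without vehicle day 5 repeat 3 these counts were 8 and 0. The glutathione transferase GSTP1 fell from 230.1 ± 6.08 to 170.7 ± 7.91 CPM (log2 fold change -0.41, adjusted p = 1.4e-09). MGST1, a membrane-bound transferase, fell by 0.32, and SLC3A2, the partner chain of SLC7A11, by 0.23 on the log2 scale. GSR, which recycles oxidised glutathione, fell by 0.21.

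Of 12 further thioredoxin and peroxiredoxin genes, 4 fell and 3 rose, with a median of -0.07. PRDX1 fell from 411.8 ± 2.13 to 306.3 ± 19.4 CPM (log2 fold change -0.40, adjusted p = 1.4e-09), and the mitochondrial PRDX3 fell by 0.35. TXN, the thioredoxin that TXNRD1 reduces, fell by 0.32. TXNIP, which binds and inhibits thioredoxin, rose by 0.33 on the log2 scale. CAT, the peroxisomal catalase, and SOD1, the cytosolic superoxide dismutase, fell by 0.34 and 0.26, and they were the 2 tested of 4 listed superoxide and peroxide enzymes.

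NADPH feeds both the glutathione and the thioredoxin reductases. Of 9 listed genes of NADPH supply, 8 were tested at day 5. Of these, 6 were lower and 1 higher in LLY-283 than in vehicle, with a median of -0.22. The mitochondrial folate enzyme MTHFD2 fell from 158 ± 3.14 to 112.9 ± 8.9 CPM (log2 fold change -0.46, adjusted p = 4.1e-09), and the pentose phosphate enzyme TKT fell by 0.34. IDH1 rose by 0.28 (SE 0.04). In vehicle cells 7 of the same 8 genes rose and 1 fell between day 0 and day 5, with a median of 0.35, TKT by 0.47, IDH1 by 0.42 and PGD by 0.38. Without vehicle day 5 repeat 3, 7 rose and 0 fell. With all libraries, 22.2% of all genes rose and 16.7% fell. Calls over all genes numbered 6652 with all libraries and 6018 without vehicle day 5 repeat 3. In LLY-283 cells, 5 of the 8 genes rose and 2 fell between day 0 and day 5, with a median of 0.15. Of all genes, 22.9% rose and 19.5% fell in LLY-283 cells. The treatment effect on this list was lower at day 5 than at day 0 for 5 of 8 genes and higher for 1. Of all genes, 8.15% were lower and 6.78% higher.

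Of 12 listed haem and iron genes, 11 were tested, 1 rose and 1 fell, with a median of -0.06, shares near those of all genes. TFRC, the transferrin receptor, rose from 165.4 ± 3.65 to 236.9 ± 7.34 CPM (log2 fold change 0.54, adjusted p = 3.9e-12), and FTH1, the ferritin heavy chain, fell by 0.22. Of 17 other known NRF2 targets, 14 were tested, 5 fell and 0 rose, with a median of -0.12. Without vehicle day 5 repeat 3, 3 fell, and ABCC4 was among those lost (adjusted p = 0.023). OSGIN1 fell by 0.85 (SE 0.17) from 5.22 ± 0.43 CPM, the carbonyl reductase CBR3 by 0.38, PIR by 0.23 and the exporter ABCC4 by 0.21. AKR1C3, an aldo-keto reductase, had a log2 fold change of 0.92 with an adjusted p of 0.014. AKR1C1 and AKR1C2 had group means at or under 0.32 CPM in both groups of day 5 and were not tested.

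Of 15 genes of selenoproteins and their synthesis, 14 were tested, 3 rose and 3 fell, with a median of -0.05. SELENOP, a secreted selenium carrier, rose from 6.03 ± 1.11 to 12.2 ± 0.48 CPM (log2 fold change 1.05, adjusted p = 1.3e-07). SELENON rose by 0.28, and SEPHS1 and SELENOH fell by 0.23 and 0.21 on the log2 scale. The selenoprotein genes TXNRD1 and GPX4, described above, are not on this list.

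The same lists changed over 5 days in vehicle cells, where 22.2% of all genes rose and 16.7% fell. Calls over all genes numbered 6652 with all libraries and 6018 without vehicle day 5 repeat 3. Of the NRF2 control genes 4 rose and 4 fell. CDKN1A fell by 1.20 (SE 0.04) from 376.5 ± 15 CPM, DPP3, whose protein binds KEAP1, fell by 0.42 and CUL3 rose by 0.29. Of 17 glutathione genes 5 rose and 3 fell, with MGST3 up by 0.94, GSTO1 up by 0.28 and SLC3A2 at -0.40. Of 12 thioredoxin and peroxiredoxin genes 5 rose and 3 fell, and without vehicle day 5 repeat 3, 6 rose and 1 fell. The sestrin genes SESN1 and SESN2 rose by 0.66 and 0.53, and PRDX3 by 0.31. SOD1 and CAT rose by 0.20 and 0.23.

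Of 11 haem and iron genes 4 rose and 2 fell in vehicle, and without vehicle day 5 repeat 3, 5 rose and 1 fell. ALAS1, the first enzyme of haem synthesis, rose by 0.44, the haem transporter SLC48A1 by 0.88 and HMOX2, the constitutive haem oxygenase, by 0.35. Of 14 other NRF2 targets 4 rose and 2 fell, with PIR up by 0.95 (SE 0.07), the exporter ABCC1 by 0.30 and the aldose reductase AKR1B1 by 0.27. Of 14 selenoprotein genes 4 rose and 0 fell, among them SELENOW by 0.40, SELENOT by 0.36 and SELENON by 0.27.

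**Figure D4:**
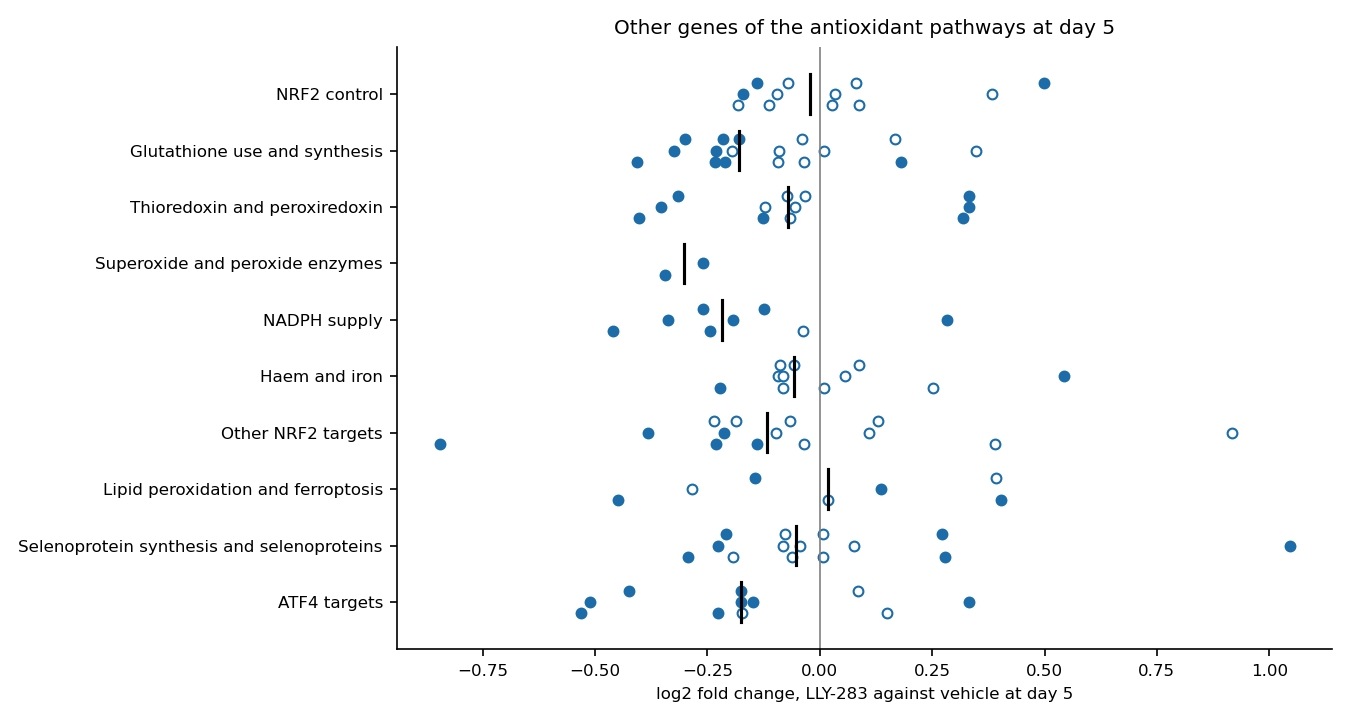
Log2 fold change of LLY-283 against vehicle at day 5 for the tested genes of 10 lists, which leave out the 10 genes described above. Filled points have an adjusted p under 0.01, black bars are list medians, and vertical offsets within a list carry no meaning. List medians lie between -0.30 and 0.02, and CDKN1A, TFRC and SELENOP are the filled points farthest right in their lists.

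For each of the 10 genes, the gene with the most similar level across the 22 libraries of days 0 to 7 was found by the Pearson correlation of log2 CPM over 20876 genes. These are descriptions over libraries that share days and treatments. The most similar gene was RAB11A for NFE2L2 (r = 0.90), FARSA for KEAP1 (r = 0.95), PCMT1 for NQO1 (r = 0.96), JMJD4 for HMOX1 (r = 0.90) and PITPNB for GCLC (r = 0.94). It was SMYD2 for GCLM (r = 0.93), FUOM for SLC7A11 (r = 0.87), UTP4 for TXNRD1 (r = 0.95), DDX28 for SRXN1 (r = 0.96) and AHCY for GPX4 (r = 0.97). None of these is one of the 10 genes or of the pathway lists.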

How the data were processed

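The deposited values are estimated counts per gene, one whole number for each library, which the authors obtained from trimmed reads with kallisto (hg38). They carry no scaling for depth. The version of kallisto and the use of strand are not given in the sources used here. Groups came from the labels. Each comparison used edgeR 4.0.16 in R 4.3.3 on those counts, with TMM scaling, the default filter on low counts by group, a robust quasi-likelihood test and adjustment by Benjamini and Hochberg over all genes tested, and a call needed an adjusted p under 0.01. Levels are CPM with TMM over all 24 libraries, and log2 CPM used a prior count of 2. The levels and sums of the cell type markers are the exception, as CPM scaled to the library total alone. DESeq2 1.42.0, other scalings and filters, fits of more libraries and the omission of single libraries were tried as alternatives, and the scripts were tested on simulated data.

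The 10 genes, the pathway lists and the marker lists were chosen with earlier results of these data known. From each pathway list, up to 3 called genes of smallest p were named for day 5 and for vehicle day 5 against day 0. Genes were matched by identifier to GENCODE on GRCh38, and 41937 of 58676 rows had a symbol. SOD2 was not matched and is not reported here. A fit of 18 libraries without day 7, a crossed block at day 7 and the pathway lists without vehicle day 5 repeat 3 were chosen after seeing the data. Totals of 13835205 to 23190369 counts limit precision for genes of few counts, such as HMOX1.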

Additional observations from a re-analysis of the deposited data

Results flagged for a closer look

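The difference between LLY-283 and vehicle was not the same at day 5 as at day 0 for 6 of the 10 genes, by the edgeR interaction test over 12 libraries. On the log2 scale, the difference at day 5 less that at day 0 was -0.46 for NQO1 (adjusted p = 4.1e-07), -0.42 for TXNRD1 (adjusted p = 2.6e-06) and -0.31 for GPX4 (adjusted p = 0.00011). It was -0.48 for GCLM (adjusted p = 0.0015), -0.33 for SRXN1 (adjusted p = 0.0017) and -0.23 for KEAP1 (adjusted p = 0.0032). For each of these genes the log2 fold change at day 0 was between 0.03 and 0.07, and the groups of day 0 overlapped. In the fit of 22 libraries that includes day 7, NQO1 alone of the 6 stayed under the threshold, with an adjusted p of 0.0077. Over all genes, that fit called 51 in the interaction, against 2742 in the fit of 12 libraries. All 6 stayed under the threshold in the fit of 18 libraries without day 7, chosen after seeing the data.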

How the results depend on the processing

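The 8 genes called lower at day 5 became 5 in a shared fit of 22 libraries, where GCLC, GCLM and SLC7A11 were lost, and 6 to 8 when 1 library was left out. In that shared fit the 7 called in vehicle day 5 against day 0 became 3, and the 6 called in the interaction became 1. Over all genes, that fit called 2042 at day 5, 5095 in vehicle day 5 against day 0 and 51 in the interaction. The main fits called 4304, 6652 and 2742. DESeq2 called 4 in vehicle day 5 against day 0, and 5346 of all genes. Leaving out 1 library gave 3 to 6 in vehicle day 5 against day 0 and 7 to 8 in LLY-283 day 5 against day 0. It gave 5 to 7 in the interaction. Over all genes, those fits called 5624 to 6114 in vehicle, 6389 to 7233 in LLY-283 and 2126 to 3000 in the interaction. At day 5, the fits without 1 library called 3193 to 4423 of all genes. With no filter on low counts, 3 were called in days 1 to 3 and 3 in the time course, each from 0. Over all genes, 517 and 1217 were called in these unfiltered fits, against 2 and 6 in the main fits. Leaving out 1 day gave 0 to 1 in days 1 to 3, and leaving out 1 library gave 0 to 3 in the time course, where a library of days 1 to 3 takes its day with it. The time course had 1 at an adjusted p under 0.05 and 1 by the likelihood ratio test of DESeq2. Days 0 and 7 stayed at 0 in every alternative run. The fit of 18 libraries without day 7, chosen after seeing the data, called 7 genes at day 5. It called 6 in vehicle day 5 against day 0 and 6 in the interaction. In these comparisons it called 4219, 6819 and 2763 of all genes. The cause of these changes in the counts was not tested. Of 1030 fold changes under alternatives, 911 kept their direction and side of the threshold, 56 lost a call, 16 gained one and 47 changed sign, none of them a called value.

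With the repeat number as a replicate block, 7 of the 10 genes were called at day 5. In day 5 against day 0, 7 were called in vehicle and 8 in LLY-283. The block gave 6 in the interaction and 0 at days 0 and 7. Over all genes, it called 4401 at day 5, 6490 in vehicle and 7918 in LLY-283. It called 2435 of all genes in the interaction, 6 at day 0 and 0 at day 7. Deviations from the group means were correlated between libraries of the same repeat number. They gave r = 0.02, 0.00 and -0.05 at day 5, and -0.13, -0.07 and -0.05 at day 0. At day 7 r was -0.33 for both numbers, since with 2 libraries per group the deviations mirror each other. The day 7 value cannot tell whether the numbers pair the libraries. The values of days 0 and 5 show no pairing and do not exclude it. The block of crossed numbers at day 7, chosen after seeing the data, called 0 of the 10 genes and 36 of all genes.

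The changed signs belonged to values that were not called. Scaled to library size alone, SLC7A11 at day 0 was -0.0051, NFE2L2 in days 1 to 3 was 0.025 and KEAP1 in vehicle day 5 against day 0 was -0.034. With at least 10 counts in every library, NFE2L2 in days 1 to 3 was 0.0078 and KEAP1 in vehicle day 5 against day 0 was -0.0046. GCLM in vehicle day 5 against day 0 was 0.00093 with the replicate block, 0.014 in the fit of 22 libraries and 0.026 in that of 18, where GPX4 in LLY-283 day 5 against day 0 was 0.0019. In the interaction, NFE2L2 was -0.0010 in DESeq2, -0.0015 with its size factors, -0.018 in the fit of 22 libraries and -0.0080 in that of 18. At day 7, HMOX1 was 0.020 with the replicate block and 0.011 with it crossed, and TXNRD1 was -0.0028 with no filter and -0.00061 in the fit of 22 libraries. Leaving out 1 library at day 0 gave -0.0039 to 0.061 for NQO1, -0.0087 to 0.067 for GCLC, -0.016 to 0.068 for GCLM and -0.047 to 0.059 for SLC7A11. In vehicle day 5 against day 0 it gave -0.026 to 0.057 for KEAP1 and -0.060 to 0.053 for GCLM, and in LLY-283 day 5 against day 0 it gave -0.0030 to 0.064 for NQO1 and -0.041 to 0.027 for GPX4. In the interaction it gave -0.028 to 0.058 for NFE2L2. At day 7 it gave -0.24 to 0.030 for NQO1, -0.50 to 0.57 for HMOX1, -0.29 to 0.067 for GCLC, -0.41 to 0.13 for GCLM, -0.32 to 0.79 for SLC7A11, -0.19 to 0.17 for TXNRD1, -0.16 to 0.083 for SRXN1 and -0.31 to 0.081 for GPX4.

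HMOX1, at 38 to 124 counts per library, had the largest SE of the 10 at day 5 (0.20).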

Other observations

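Targets of ATF4, the transcription factor of the amino acid response, include genes that feed cysteine and glycine to glutathione. Of 12 genes listed, which include ATF4 itself, 11 were tested at day 5. Of these 11, 7 were lower and 1 was higher in LLY-283, with a median log2 fold change of -0.17. Among all genes, 14.1% were lower and 12% higher. ATF4 was among the 7 that were lower, at -0.15 (adjusted p = 0.0012). SLC7A5, a carrier of large neutral amino acids, fell from 355.1 ± 14.7 to 241.5 ± 5.27 CPM (SD, n = 3; log2 fold change -0.53, adjusted p = 5.5e-12). PHGDH, the first enzyme of serine synthesis, fell by 0.51 (SE 0.04), and the pseudokinase gene TRIB3 by 0.43 (SE 0.06). SESN2, a stress-induced sestrin, was the one called higher, at 0.33. In vehicle cells 8 of the 11 rose and 1 fell between day 0 and day 5, with a median of 0.47. Among all genes, 22.2% rose and 16.7% fell, and ATF4 was among the 8 that rose, at 0.20. DDIT4 rose there by 1.24 (SE 0.04), PHGDH by 0.65 and PSAT1 by 0.59. In LLY-283 cells, 6 of the 11 rose and 4 fell between day 0 and day 5, with a median of 0.15. Of all genes, 22.9% rose and 19.5% fell in LLY-283 cells. The treatment effect was lower at day 5 than at day 0 for 6 of the 11 and higher for 1. Of all genes, 8.15% were lower and 6.78% higher. Elsewhere, lower and higher counts were 0 and 1 of 12 NRF2 control genes and 6 and 0 of 17 glutathione genes. They were 3 and 2 of 12 thioredoxin and peroxiredoxin genes and 2 and 0 of 2 superoxide and peroxide enzymes. Haem and iron had 1 and 1 of 11, other NRF2 targets 3 and 0 of 14. Lipid peroxidation and ferroptosis had 1 and 1 of 7, selenoproteins 2 and 2 of 14. ATF4 and SESN2 were picked for mention after their values were seen, and SESN2 also stands on the thioredoxin and peroxiredoxin list.

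Of 9 genes of lipid peroxidation and ferroptosis, 7 were tested at day 5, and 2 rose and 2 fell. Without vehicle day 5 repeat 3, 1 rose and 2 fell. Of all genes, 12% rose and 14.1% fell, and 9.14% and 11.6% without that library. ACSL4, which loads polyunsaturated fatty acids for membrane lipids, fell from 116.4 ± 4.44 to 83.8 ± 5.17 CPM (log2 fold change -0.45, adjusted p = 4e-09). LPCAT3, which places such fatty acids into phospholipids, rose by 0.40 (SE 0.04), and the desaturase gene FADS2 fell by 0.14 (SE 0.03). In vehicle cells FADS2, LPCAT3 and the stearoyl desaturase gene SCD rose between day 0 and day 5 by 0.83, 0.74 and 0.69 on the log2 scale. ALOX5 was at 0 in all libraries of day 5, and ALOX15 had group means at or under 0.19 CPM.

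Across the 22 libraries of days 0 to 7, which share days and treatments, the 10 genes did not follow 1 common pattern. The closest pair was GCLC with SRXN1 (Pearson r = 0.93), followed by HMOX1 with SLC7A11 (r = 0.86) and NQO1 with GPX4 (r = 0.85). NQO1 and GCLC, both targets of NRF2, were at r = 0.00. NFE2L2 was at r = -0.39 with GCLC, -0.33 with SRXN1 and 0.57 with NQO1. Apart from NFE2L2, every other gene was at r = 0.59 to 0.84 with KEAP1 and at 0.65 to 0.84 with TXNRD1. NFE2L2 was at 0.17 with KEAP1 and 0.06 with TXNRD1.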
